A study of Mus musculus with 27 samples.

Results

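S100a5 and Calb2 encode calcium-binding proteins, and Pcp4l1 encodes a relative of a calmodulin-binding protein. These genes were measured by 4 probes, of 29922 on the array, in mouse olfactory mucosa with and without airflow. The members are all probes that the array's annotation assigns to these genes: 1 for S100a5, 1 for Pcp4l1 and 2 for Calb2. The genes were selected on their measured differences between occluded and open or normal mucosa in these same arrays. Their levels and differences are therefore given as a description, with an error but without a test. Tests are given only for other genes.

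The mice were 25-day-old females of the FVB strain, the inbred line used for all groups. In the first group of mice 1 nostril was closed by cautery, so the mucosa behind it (occluded) received little airborne odor, while the mucosa behind the other nostril (open) stayed ventilated. Occluded and open mucosa came from the same individuals, and normal mucosa came from other mice given a sham cautery on the muzzle. Each of the 3 groups had 3 biological replicates, and each replicate was hybridised to 3 arrays, 27 in all. Whether a replicate held tissue of 1 mouse or of several, and how long the nostril had been closed, the labels do not say. The open side belongs to a mouse with a closed nostril, so it is not an untouched control.

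In olfactory sensory neurons odor raises cyclic AMP, which opens cyclic nucleotide-gated channels in the cilia. Calcium enters through these channels, shapes the electrical response and its adaptation, and is then removed by exchangers. EF-hand proteins bind the ion through a helix-loop-helix fold, either as buffers or as sensors. S100a5 is a small EF-hand protein of the S100 family, and in rodents it is found largely in olfactory sensory neurons. Pcp4l1 is a short relative of Pcp4. The Pcp4 protein binds calmodulin through an IQ motif and alters how fast calmodulin exchanges calcium. These arrays do not measure whether Pcp4l1 does so. Calb2 encodes calretinin, an EF-hand buffer used in many tissues as a neuronal marker and found in olfactory sensory neurons and olfactory bulb interneurons.

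The promoters of S100a5 and Pcp4l1 are shown. Each runs from 250 bases before to 50 after the RefSeq start in GRCm38.p6. Calb2 had no entry in that set of promoters, so 2 of the 3 genes matched. Capitals mark CCAAT (reverse ATTGG) and the TATA box letters TATAAA (reverse TTTATA).
S100a5, chr3:90608272-90608571, plus strand: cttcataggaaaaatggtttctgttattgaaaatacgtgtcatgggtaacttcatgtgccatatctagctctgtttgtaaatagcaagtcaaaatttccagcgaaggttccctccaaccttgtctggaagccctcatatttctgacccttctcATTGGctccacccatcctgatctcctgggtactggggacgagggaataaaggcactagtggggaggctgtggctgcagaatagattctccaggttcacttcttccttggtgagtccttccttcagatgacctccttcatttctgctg
Pcp4l1, chr1:171196219-171196518, minus strand: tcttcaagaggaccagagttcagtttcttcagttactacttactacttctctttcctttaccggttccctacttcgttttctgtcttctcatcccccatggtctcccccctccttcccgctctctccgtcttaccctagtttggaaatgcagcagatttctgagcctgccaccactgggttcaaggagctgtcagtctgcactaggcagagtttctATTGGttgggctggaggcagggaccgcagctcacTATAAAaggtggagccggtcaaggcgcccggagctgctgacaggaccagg
Both windows held 1 CCAAT in reverse, 97 bases before the start in S100a5 and 34 before it in Pcp4l1. CCAAT was present in 37.4% of 32851 promoters of this length. Pcp4l1 also held TATAAA, beginning at the annotated start itself, and 13.6% of promoters held these letters. Neither window held the cAMP response element TGACGTCA (1.79% of promoters), its shorter core TGACG (20.8%), which lies within it, or the AP-1 letters TGANTCA (7.81%). Neither held CCCNNGGG, the core of sites for Ebf factors (13.7%), or the homeodomain core TAATTA (5.29%). All were searched on both strands, and these are descriptions of letters in a window.

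S100a5 and Pcp4l1 were both lower in occluded mucosa than in open or normal mucosa, and Calb2 was higher there. The S100a5 probe read 10656, 13568 and 23927 intensity units in occluded replicates 1 to 3, means of 3 arrays of the deposited background-subtracted values. It read 50568, 65478 and 65464 in open replicates and 65548, 64775 and 62309.8 in normal replicates. Every occluded replicate lay far below every open and normal one. The highest of the 9 occluded arrays read 28107, against 42481 for the lowest of the 9 open arrays. Group means were 16050.4 ± 6975 in occluded, 60504 ± 8604 in open and 64211 ± 1691 in normal mucosa (SD, n = 3 each).

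The S100a5 signal had reached the top of the scale on many arrays. A probe was called saturated on an array where it lay within 0.5% of the array's highest value. That was so on 0 of 9 occluded, 5 of 9 open and 7 of 9 normal arrays. The open and normal levels are thus lower limits, and occluded mucosa was at least 3.77-fold below open and at least 4.0-fold below normal mucosa by deposited group means. Open replicate 1 was not saturated on any of its 3 arrays. With that replicate the deposited intensity was 4.75 times lower on the occluded side of the same number. In replicates 2 and 3 it was at least 4.83 and at least 2.74 times lower, since the open side was saturated on 2 and 3 of 3 arrays. No order between open and normal mucosa can be read for S100a5, since both lay at the ceiling.

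On the normalized log2 scale (arrays quantile normalized, then averaged by replicate) S100a5 averaged 13.81 ± 0.44 in occluded, 15.88 ± 0.07 in open and 15.96 ± 0.04 in normal mucosa (SD, n = 3 each). The fitted occluded minus open log2 difference was -2.07 ± 0.18 (SE) and occluded minus normal -2.15 ± 0.23. Because of the saturation both are lower limits of the size, and the SE does not cover that. The pairs numbered 1, 2 and 3 gave -2.39, -2.15 and -1.66, the last 2 also lower limits of the size. With saturated arrays left out where a replicate had an unsaturated one, occluded minus open was -2.04. Open replicate 3, saturated on 3 of 3 arrays, kept its saturated values there, so this difference is not free of the ceiling. The narrow spread of open and normal replicates comes with the saturation described above.

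Pcp4l1 was not saturated on any array and so gives a fuller reading. It read 16695, 13089 and 19932 intensity units in occluded replicates, 40416, 34873 and 43196 in open replicates and 38694, 42716 and 31538 in normal replicates. The 3 occluded replicates lay below all 6 others, while open and normal replicates overlapped. The same held array by array, with a highest occluded array of 21316 and a lowest open array of 25701. Group means were 16572 ± 3423 in occluded, 39495 ± 4237 in open and 37649 ± 5662 in normal mucosa (SD, n = 3 each).

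The normalized log2 level of Pcp4l1 was 13.94 ± 0.19 in occluded, 15.26 ± 0.26 in open and 15.25 ± 0.13 in normal mucosa (SD, n = 3 each). Occluded minus open was -1.32 ± 0.15 (SE), a level 2.49-fold lower, and the pairs gave -1.45, -1.29 and -1.22. The pairs differed from each other by much less than the size of the difference. Occluded minus normal was -1.32 ± 0.19, and open minus normal was 0.0028 ± 0.19. Open and normal mucosa therefore did not differ beyond their spread. In such bulk tissue, fewer cells of a type and less RNA per cell cannot be told apart.

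**Figure D1:**
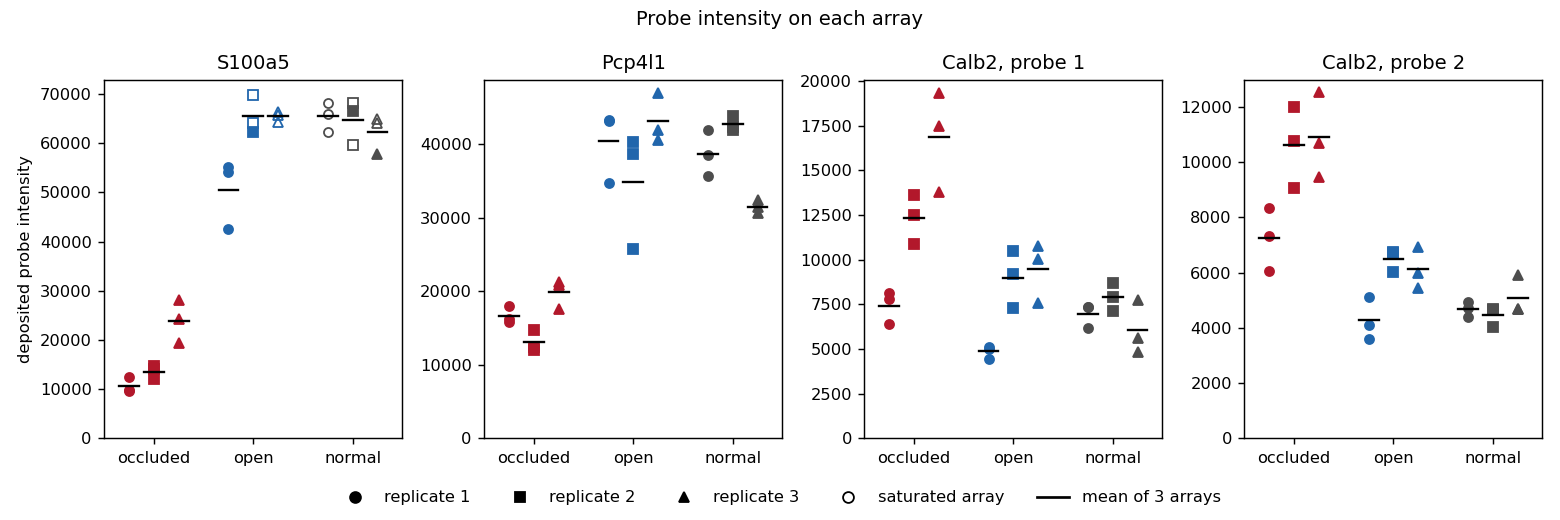
Deposited probe intensity (linear axis from 0) of the 4 member probes on each of 27 arrays, by group. Symbols mark the replicate, open symbols an array on which the probe was saturated, and bars the mean of 3 arrays. Occluded arrays of S100a5 and Pcp4l1 lie below all open and normal arrays, and S100a5 is saturated on 5 open and 7 normal arrays.

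Calb2 was read by 2 probes that did not saturate, and both were higher in occluded mucosa. The brighter one, called probe 1 here, read 7427, 12328 and 16843 intensity units in occluded replicates. It read 4864, 8983 and 9452 in open replicates and 6979, 7893 and 6068 in normal replicates. Occluded replicates 2 and 3 lay above all others, but occluded replicate 1 lay below 2 open replicates and 1 normal replicate. Within each number the occluded side was the higher, by 1.53, 1.37 and 1.78 times. Group means of probe 1 were 12200 ± 4710 in occluded, 7767 ± 2525 in open and 6980.1 ± 912 in normal mucosa (SD, n = 3 each).

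Probe 2 of Calb2 read 7241, 10616 and 10894 intensity units in occluded replicates, 4279.8 and 6493 and 6127 in open replicates and 4677, 4456 and 5094 in normal replicates. By this probe all 3 occluded replicates lay above all open and normal replicates. The occluded side exceeded the open side by 1.69, 1.64 and 1.78 times in the same-numbered pairs, a narrow range. Group means were 9584 ± 2033 in occluded, 5633 ± 1186 in open and 4742 ± 324 in normal mucosa (SD, n = 3 each).

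On the normalized log2 scale probe 1 of Calb2 differed by 0.59 ± 0.19 (SE) and probe 2 by 0.73 ± 0.17 between occluded and open mucosa. The pairs gave 0.41, 0.59 and 0.78 for probe 1 and 0.56, 0.85 and 0.77 for probe 2. Against normal mucosa the occluded difference was 0.61 ± 0.24 for probe 1 and 0.87 ± 0.21 for probe 2. Open minus normal was 0.02 ± 0.24 for probe 1 and 0.14 ± 0.21 for probe 2, within the spread of replicates. As a fold, occluded over open was 1.51 by probe 1 and 1.66 by probe 2. The sizes are thus smaller than those of S100a5 and Pcp4l1, and the sign is the opposite.

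Counted by replicates that do not overlap on the normalized scale, S100a5 and Pcp4l1 were lower in occluded than in open mucosa, which 2.94% of all probes also were. Of the Calb2 probes only probe 2 was higher without overlap, as were 3.76% of all probes. Against normal mucosa, S100a5 and Pcp4l1 were lower without overlap (3.09% of all probes) and both Calb2 probes were higher (3.57%). Between open and normal mucosa, the replicates of all 4 probes overlapped, while 2.06% of all probes were higher and 2.21% lower without overlap. The genes were selected on these contrasts, so nothing is read from the counts.

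**Figure D2:**
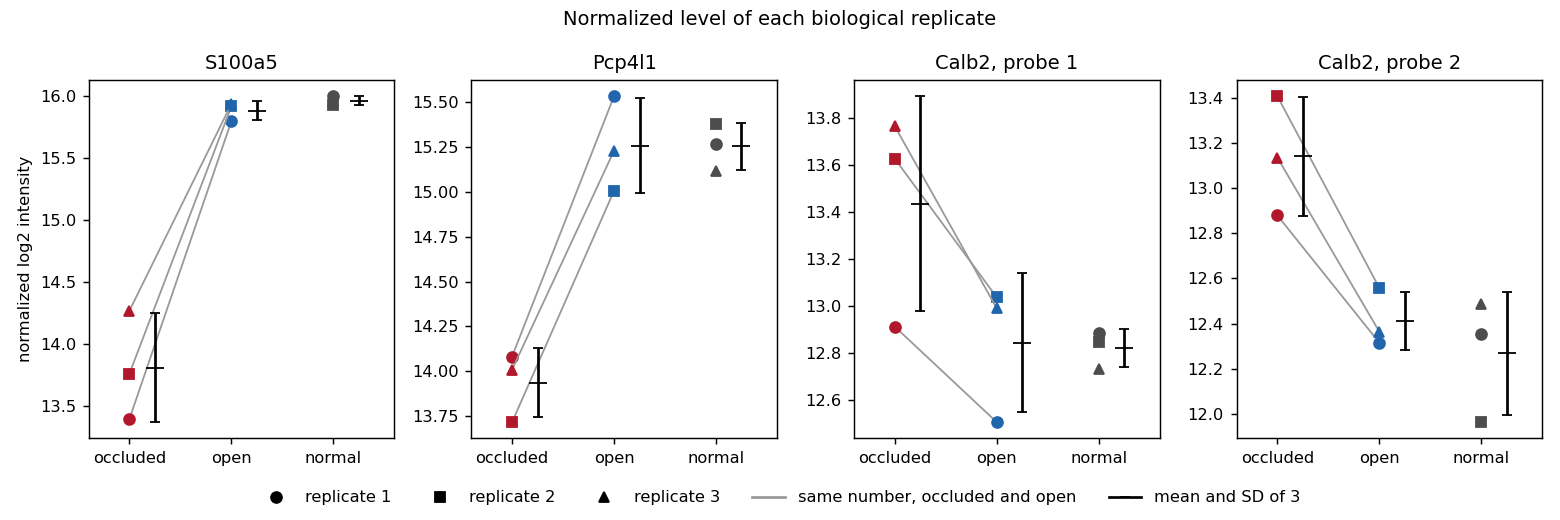
Normalized log2 intensity of each biological replicate for the 4 member probes, each with its own axis. Grey lines join occluded and open replicates of the same number, and bars give the mean and SD of 3. All 3 lines go the same way in each panel. Open and normal means lie close together for Pcp4l1 and both Calb2 probes, while for S100a5 they lie at the ceiling and cannot be compared.

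The repeat arrays show how much of the variation was technical. The SD between arrays of 1 replicate was 0.14 on the log2 scale for S100a5, 0.17 for Pcp4l1, 0.19 for Calb2 probe 1 and 0.16 for probe 2. The SD between replicates of 1 group was 0.26, 0.20, 0.32 and 0.23 in the same order. Replicates thus varied somewhat more than repeat arrays did, and both values of S100a5 are narrowed by its ceiling. In occluded mucosa the SD between replicates was 0.44 for S100a5 and 0.46 for Calb2 probe 1, against 0.19 for Pcp4l1 and 0.26 for Calb2 probe 2.

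Across the 9 replicates the normalized level of S100a5 correlated with that of Pcp4l1 at r = 0.94. The 2 Calb2 probes correlated with each other at r = 0.80. Calb2 probe 1 correlated with S100a5 at r = -0.61 and with Pcp4l1 at r = -0.81, and probe 2 at r = -0.84 and r = -0.95. These coefficients describe 9 points that share 3 groups and, in 6 of them, the same mice, so they largely restate the group differences. Those with S100a5 also carry its ceiling in open and normal mucosa.

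The nearest relatives of the 3 genes were then examined, with tests from limma over all 29922 probes (Benjamini-Hochberg adjustment over all of them). Pcp4, the relative of Pcp4l1, had a log2 difference of -0.14 ± 0.17 (SE) between occluded and open mucosa by its brighter probe (limma adjusted p = 0.997). Its other probe was below the noise limit (3 times the root mean square of an array's values below 0) on 20 of 27 arrays. Calb1, which encodes calbindin and is the closest relative of Calb2, was dim and differed by 0.40 ± 0.23 by its brighter probe (limma adjusted p = 0.920). The other Calb1 probe had the opposite sign, at -0.41 ± 0.38, and was below the noise limit on 24 of 27 arrays. Calm3, which encodes calmodulin, differed by -0.05 ± 0.23 and 0.09 ± 0.14 by its 2 probes (limma adjusted p = 0.9997 and 0.997).

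S100a5 lies in the cluster of S100 genes, and S100a4 and S100a6 are its direct protein-coding neighbours in GRCm38.p6. S100a4, a calcium-binding protein of migrating and immune cells, read 2283, 2199.5 and 2474 intensity units in occluded replicates. It read 4103.5, 5474 and 5199 in open and 2905.5, 5836.5 and 4264 in normal replicates. Occluded replicates lay below all others, with an occluded minus open log2 difference of -1.10 ± 0.17 that did not pass (limma adjusted p = 0.057). Occluded minus normal was -0.97 ± 0.22 (limma adjusted p = 0.53). S100a6 differed by -0.74 ± 0.33 (limma adjusted p = 0.81). S100a7a, the gene after S100a6, differed by 0.10 ± 0.31.

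Of other S100 genes, S100a1 differed by 0.06 ± 0.16 between occluded and open mucosa, S100b, a glial protein, by 0.17 ± 0.16 and S100a10 by -0.20 ± 0.29 (limma adjusted p from 0.992 to 0.9996). The difference was -0.33 ± 0.18 for S100a3, and -0.55 ± 0.49 and -0.46 ± 0.97 for the neutrophil genes S100a8 and S100a9 (limma adjusted p from 0.902 to 0.997). The measured neighbours of Pcp4l1 and Calb2 differed little by their brightest probe. The difference was 0.26 ± 0.24 for Nr1i3 next to Pcp4l1 and -0.19 ± 0.41 for Sdhc, the next but 1 gene to Pcp4l1. It was 0.00028 for Zfp612 and -0.06 for Hydin, each the next but 1 gene to Calb2.

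The 6 lists of calcium-signal genes without the members, 117 genes in all, had 108 measured. Of these, 2 fell in occluded against open mucosa and 0 rose, where 0.0434% of all probes fell and 0.177% rose. The lists were chosen with earlier results of these data known, so nothing is read from this count beside that share. Both genes that fell remove calcium from cells in exchange for sodium. The log2 difference was -1.75 ± 0.22 for Slc24a1 (limma adjusted p = 0.023) and -1.42 ± 0.21 for Slc8a1 (limma adjusted p = 0.046). A second Slc8a1 probe was lower too, at -1.45 ± 0.19 (limma adjusted p = 0.025), and the other two differed by -1.42 and -0.19 (limma adjusted p = 0.063 and 0.997). The call was lost in 8 of 18 alternative settings for Slc24a1 and in 11 of 18 for that first Slc8a1 probe. It was lost in 9 of 18 for the second probe.

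Without the replicates numbered 1, or without those numbered 3, no calcium gene was called, and without those numbered 2 only 1 was. With the pair of sides as a fixed block, 0 were called. Against normal mucosa 0 of 108 passed in limma, with 3 higher and 4 lower at an unadjusted p under 0.05 (2.88% of all probes were under it), and Slc24a1 differed by -1.77 ± 0.28 (limma adjusted p = 0.20). Between open and normal mucosa 0 passed, and 0 had an unadjusted p under 0.05, as 1.59% of all probes did. In these comparisons 0.00668% and 0% of all probes were called.

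The list of S100 genes had 13 of 15 measured and 0 called between occluded and open mucosa, with a median log2 difference of -0.09 against 0.0042 over all probes. EF-hand buffers had 15 of 15 measured, 0 called and a median of 0.10. Among them Necab3 differed by 1.05 ± 0.23 (limma adjusted p = 0.199) and Scgn, which encodes secretagogin, a relative of calretinin, by 0.94 ± 0.37 (limma adjusted p = 0.73). IQ-motif calmodulin binders had 8 of 9 measured, 0 called and a median of -0.19. The transcription activator gene Camta1 differed by -0.37 ± 0.14 (limma adjusted p = 0.72).

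Calmodulin and its effectors had 28 of 30 measured, 0 called and a median of 0.0052. Ppp3ca, the catalytic subunit of the calcium-activated phosphatase calcineurin, differed by 0.62 ± 0.15 and 0.73 ± 0.23 by its probes (limma adjusted p = 0.287 and 0.545). Neuronal calcium sensors had 13 of 13 measured, 0 called and a median of -0.02, with Vsnl1, which encodes visinin-like 1, at -0.37 ± 0.16 (limma adjusted p = 0.799). Genes of calcium entry and extrusion had 31 of 35 measured and a median of -0.03. In the 5 lists without a called gene, 4 genes were higher and 3 lower at an unadjusted p under 0.05, which 6.19% of all probes had.

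Markers of olfactory neurons were read beside the members, since S100a5 and calretinin are known from these cells. The brighter probe of Omp, which defines mature olfactory neurons, was at the ceiling on 26 of 27 arrays. Its other probe was never saturated and differed by -0.02 ± 0.24 between occluded and open mucosa (limma adjusted p = 0.9997). Of 12 mature neuron markers 9 were measured. Apart from Omp, whose direction cannot be read at the ceiling, the other 8 had a difference above 0. None was called, 5 had an unadjusted p under 0.05 (6.19% of all probes did), and the median over the 9 was 0.47. The summed normalized intensity of this list ran between 258696 and 288070 in occluded, 216931 and 221956 in open and 228325 and 239376 in normal replicates. Every occluded sum lay above every open and normal one, and the sums include Omp at its ceiling. They also include Cnga2, which was saturated on 3 of 9 occluded arrays. Whether the marker levels have a part in the values of S100a5 and Pcp4l1 was not tested.

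Immature neuron markers went the other way, with 9 of 10 measured, all 9 below 0 and 0 called (0 at an unadjusted p under 0.05). Their median difference was -0.22 between occluded and open mucosa. Their summed intensity ran between 42027 and 55774 in occluded, 50997 and 66146 in open and 54418 and 65760 in normal replicates, so groups overlapped. Whether these marker levels have a part in the values of Calb2 was not tested. Markers of the olfactory bulb or brain, where calretinin is also found, had 12 of 13 measured, 0 called and a median of 0.05. Their sums overlapped between groups, at 24176 to 25842 in occluded, 23780.5 to 26267 in open and 23119 to 32551 in normal replicates. The glutamate decarboxylase gene Gad2 differed by 0.04 ± 0.14 between occluded and open mucosa. Gad1 read 807 intensity units in occluded replicate 1, against 98.6 and 37.2 in occluded replicates 2 and 3 and 119, 174 and 263 in open replicates. That occluded replicate stood apart from all others for Gad1, and no direction is read from its difference of -0.26 ± 0.92. Whether this has a part in the member values of that replicate was not tested.

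**Figure D3:**
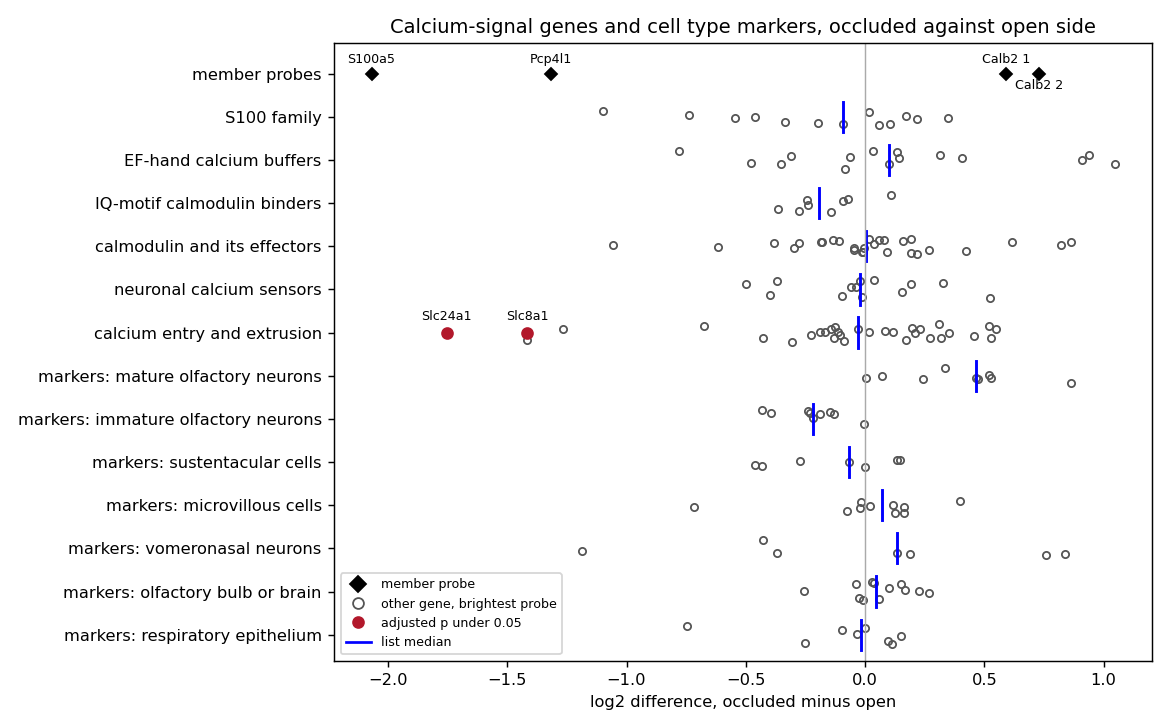
Log2 difference between occluded and open mucosa for the member probes, for genes of 6 calcium-signal lists and for markers of 7 cell types, with 1 point a gene (brightest probe) and a blue bar at the list median. Filled red points passed an adjusted p of 0.05 in limma. Slc24a1 and Slc8a1 are the called genes, and mature neuron markers lie above 0, apart from Omp at its ceiling, while immature ones lie below.

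Markers of other cell types had list medians between -0.07 and 0.13 for occluded minus open: -0.07 for sustentacular cells, 0.07 for microvillous cells, 0.13 for vomeronasal neurons and -0.02 for respiratory epithelium. None of these lists had a called gene. Of the 7 vomeronasal markers measured, 4 lay above 0 and 3 below. In occluded mucosa 2 were higher without overlap on the normalized scale and at an unadjusted p under 0.05. Of all probes, 3.76% were higher without overlap, and 6.19% had such a p in either direction. The difference was 0.84 ± 0.17 for the channel gene Trpc2 and 0.76 ± 0.21 for H2-M9 (limma adjusted p = 0.157 and 0.41), and both were above noise on all arrays. The receptor gene Vmn2r1 was below the noise limit on 26 of 27 arrays. Whether vomeronasal markers have a part in the member values was not tested.

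The genes with the pattern most like each member were then taken from 17903 probes of named genes that lay above noise on at least 18 arrays and were saturated on at most 3. Likeness is Pearson's r with the member's brightest probe over the 9 replicates, a description that follows mostly from the groups. Genes found this way share the contrast used to find them, so their differences are given without a test. The S100a5 probe itself was saturated on 12 of 27 arrays, which flattens its profile over open and normal replicates. For S100a5 these were Rgs8 (r = 0.96), which shortens G protein signalling, Hspa12a (r = 0.95), the protocadherin gene Pcdh10 (r = 0.95), Dleu7 (r = 0.95) and Slc24a1 (r = 0.94). For Pcp4l1 they were Pcdh10 (r = 0.98), Trim45 (r = 0.96), Slc24a1 (r = 0.96), the zinc finger gene Zic4 (r = 0.96) and the leukocyte gene Lst1 (r = 0.96). Pcdh10 and Slc24a1 were thus on both lists.

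Rgs8 differed by -0.50 ± 0.12 between occluded and open mucosa, Hspa12a by -0.71 ± 0.14, Trim45 by -0.88 ± 0.15 and Lst1 by -0.82 ± 0.13. The difference was -1.18 ± 0.13 for Pcdh10 and -1.37 ± 0.19 for Dleu7. Zic4 differed by -0.71 ± 0.14, while its other probe differed by 0.49. Other probes of these genes differed by -0.40 and -0.37 for Rgs8, -1.06 for Trim45 and -0.21 for Hspa12a, the last much nearer 0 than the probe named.

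For Calb2 the closest patterns were the histone variant gene H2ax (r = 0.93), the sphingosine phosphate lyase gene Sgpl1 (r = 0.92) and the stomatin gene Stom (r = 0.91). Nudt12 (r = 0.91) and Rbbp5 (r = 0.91), which encodes a histone methyltransferase subunit, followed. Their differences between occluded and open mucosa lay between 0.18 and 0.43. The other probe of Nudt12 differed by 0.57. The other probes of Rbbp5 differed by -0.10 and -0.29, so its pattern is that of 1 probe. At r of 0.9 or more there were 22 probes for S100a5, 20 for Pcp4l1 and 11 for Calb2.

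**Figure D4:**
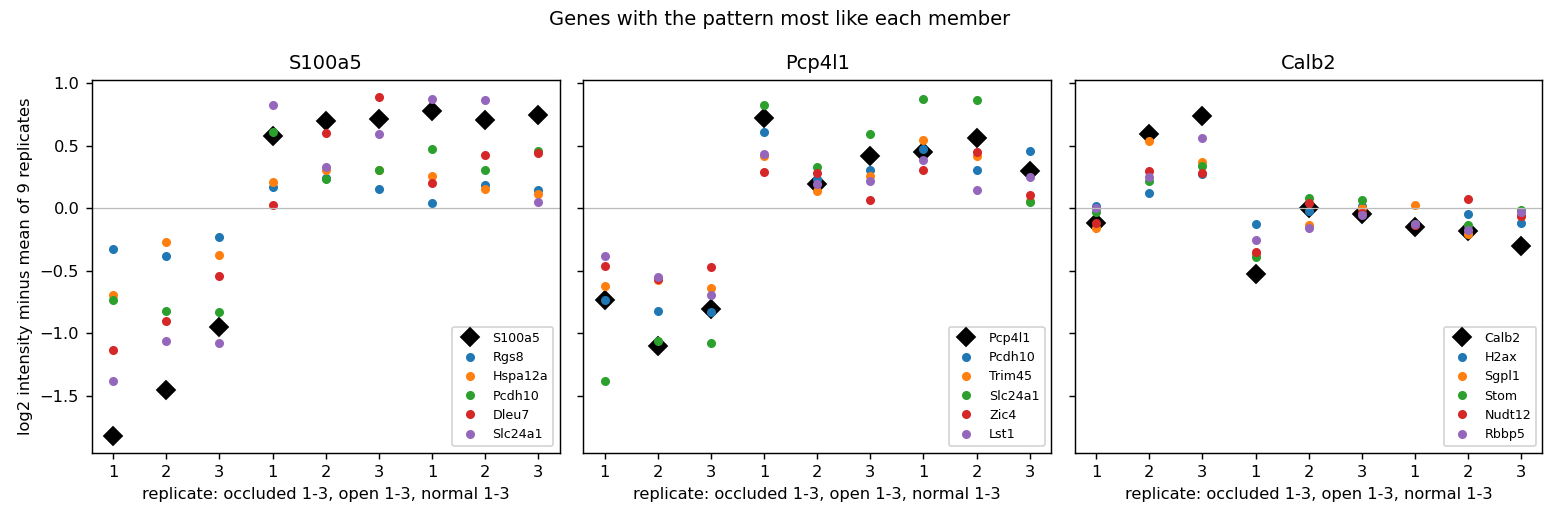
Log2 intensity of each member's brightest probe (black diamonds) and of the 5 most similar genes (coloured points), each minus its own mean over 9 replicates, by replicate within occluded, open and normal mucosa. The S100a5 and Pcp4l1 sets are low in all 3 occluded replicates. In the Calb2 set occluded replicate 1 lies near 0 and below occluded replicates 2 and 3.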

How the data were processed

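Per the labels' protocols, total RNA was converted to cDNA, transcribed into amino-allyl RNA and coupled to Cy5, 1 sample to an array. The authors deposited linear probe intensity values with background already subtracted. The labels do not name the scanner, background method or any normalization before deposit. Array medians lay between 123 and 274 and noise limits between 11.6 and 24.1. The number of arrays limits the precision.

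Values below 0.912, the lowest positive value, were set to it, log2 taken, arrays quantile normalized and 3 arrays averaged per replicate. limma 3.58.1 (R 4.3.3, statmod 1.5.0) fitted 3 groups over 29922 probes with each individual as a random effect (consensus correlation 0.389), two-sided, at an adjusted p of 0.05. It was tested on simulated data. Alternatives changed the block, normalization, offset, averaging of arrays, saturated values, dim probes, variance prior and groups in the fit, or left out replicates. The design text states that open and occluded were repeated measures. That equal numbers mark the same individual was assumed, and the SE and adjusted p of occluded minus open rest on it. Deviations of occluded and open replicates numbered 1 to 3 correlated at 0.516, -0.0044 and 0.142. Those of normal replicates, from other mice, correlated with the same-numbered occluded ones at 0.353, 0.067 and 0.0015 and with open ones at 0.394, 0.104 and 0.071. Probes were named from the array's annotation, with 2728 symbols updated through RefSeq names (GRCm38.p6), and the brightest probe stands for a gene in list medians.

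The members and lists were chosen with earlier results of these data known. Named were all member probes and a set of relatives and partners. Added were called genes, up to 2 genes of smallest p per list and the 5 genes most like each member. Some relatives in that set are not reported here. S100a3, S100a7a, S100a8, S100a9, Trpc2, H2-M9, Nr1i3, Sdhc, Zfp612, Hydin, Vmn2r1, Gad1 and Gad2 were named outside this rule, as neighbours or markers.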

Additional observations from a re-analysis of the deposited data

How the results depend on the processing

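Over 18 alternatives (17 against normal mucosa) the member differences kept their sign between occluded and open or normal mucosa. Settings that changed only the block, variance prior, dim probes or groups in the fit cannot move these differences. Leaving out a normal replicate cannot move occluded minus open either. Leaving out any other replicate could not turn a sign, since all pairs of a probe shared it. Against normal mucosa it could not either, since normalized occluded and normal replicates did not overlap. For S100a5 and Pcp4l1 the normalized occluded arrays overlapped no other array, so the averaging of arrays could not turn the sign. In all these settings the sign was fixed in advance. Occluded minus open lay between -2.27 and -1.91 for S100a5, -1.37 and -1.21 for Pcp4l1, 0.50 and 0.69 for Calb2 probe 1 and 0.67 and 0.81 for probe 2. Open minus normal changed sign for Pcp4l1 in 3, Calb2 probe 1 in 4 and probe 2 in 1 of 17, all near 0. It moved for S100a5 to -0.20 with median centring, against -0.08, with both groups at the ceiling and no order read.

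The counts were less stable, and the causes were not tested. The 66 probes called between occluded and open mucosa became 3 with no replicate block, 2 with the number as a fixed replicate block, 0 with pairs as fixed replicate block and 2 groups, 0 with no normalization, 37 with median centring, 14 with 2 groups in the fit and 0 to 49 with a replicate left out. The 2 calcium genes became 0 with no replicate block, 0 with either fixed replicate block, 0 with no normalization, 0 with 2 groups in the fit, 4 with the linear mean of arrays, 4 with an intensity trend and 0 to 2 with a replicate left out. Against normal mucosa the 2 probes became 0 with the fixed replicate block, 0 with no normalization, 24 with an offset of 50, 5 with the median of arrays, 13 without the dimmest 30%, 19 with an intensity trend, 0 with 2 groups in the fit and 0 to 1 with a replicate left out. The number of mice and the saturation of S100a5 limit the precision.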
